A study of Mus musculus with 8 samples.

Results

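The 46 genes described here encode the integrin chains and the structural proteins of the basement membrane. They were measured in RNA of mouse uterine epithelium, from controls and from mice with a conditional deletion of Smad2 and Smad3 (cKO). They were taken by gene symbol from the 24346 symbols of the deposited tables: 18 integrin alpha chains, 8 integrin beta chains, 10 laminin chains, 6 collagen IV chains, 2 nidogens and the heparan sulphate proteoglycans perlecan (Hspg2) and agrin (Agrn). Of these, 29 were abundant enough to be tested, among 11315 tested genes. Integrins are paired alpha and beta receptors that join the matrix outside a cell to its cytoskeleton, and each pairing fixes which ligand is bound. The basement membrane under an epithelium is a sheet of laminin trimers and collagen IV networks, linked by nidogens and proteoglycans, and epithelial cells hold to it mainly through laminin-binding integrins. Integrins that contain the alphaV chain can also release TGF-beta from its latent complex, upstream of SMAD2 and SMAD3.

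Each library was RNA from uterine epithelium, sequenced after cDNA was made with random and oligo-dT primers. The 5 cKO libraries came from mice with genotype Smad2flox/flox;Smad3flox/flox;Pgr-cre, with loxP sites around exons 9 and 10 in the Smad2 gene, and around exons 2 and 3 in Smad3. Cre was expressed from a knock-in allele of the progesterone receptor gene, which is also active in the ovary, oviduct, mammary gland and pituitary gland. The 3 other libraries were labelled control, without a stated genotype, and all lines were on a mixed C57BL/6/129S6/SvEv background. The sources used here do not give the age of the mice, the cycle stage or how epithelium was separated from the rest of the uterus. Whether each library stands for 1 animal is not labelled, so p-values measure a spread among libraries that can be partly technical.

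The deposited values are FPKM, the number of fragments scaled to the length of the transcript and to the mapped fragments of the library. Here they were summed per gene and put on 1 scale across libraries (scaled FPKM), so that levels of different genes can be set side by side per length. A log2 fold change is cKO minus control on log2(scaled FPKM + 1), which understates the change of low genes, and a gene was called when its limma p-value after Benjamini-Hochberg adjustment over all tested genes was below 0.05. Estimated depth was 44.2 to 55.5 M fragments per library. Smad2 was at 3.58 ± 0.378 scaled FPKM in cKO (SD, n = 5) and 6.07 ± 0.342 in control (SD, n = 3), with a limma adjusted p of 0.0055. Smad3 did not differ past the threshold (limma adjusted p = 0.837), in values that also count the exons outside the floxed segment. All 12 general epithelial markers were detected and none was called, while stromal markers were present too, summing to 121 to 275 scaled FPKM in control and 61.2 to 263 in cKO. Of 6 further markers of basal or stratified epithelium, 3 were tested and 2 rose in cKO. Krt17 rose from 1.35 to 17.9 and Krt15 from 0.511 to 2.32 (limma adjusted p = 0.0046 and 0.023). The Krt15 call ended under 5 of 23 alternative fits. In such bulk RNA, fewer cells of a type and less RNA per cell cannot be told apart.

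Among the 29 tested members, 4 fell and 3 rose in cKO. The falls were Itgam, an integrin alpha chain best known from myeloid leukocytes, Lamb1 and Lama3, 2 laminin chains, and Itga5, the alpha chain of the fibronectin receptor. The rises were Lamc1, the common laminin gamma chain, Itgb1, the beta chain that most integrin alpha chains share, and Itgae, the alpha chain that pairs with beta7. The 7 called members are 24.1% of those tested, beside a background of 14.3% of all tested genes (7.27% higher and 6.98% lower). The groups did not overlap for 8 tested members, 27.6%, where the background was 24.6%. The median log2 fold change of the tested members was -0.22, with -0.0050 over all tested genes, and their median absolute log2 fold change was 0.466, with 0.222 over all tested genes. An unadjusted p under 0.05 was found for 12 of the 29.

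**Figure D1:**
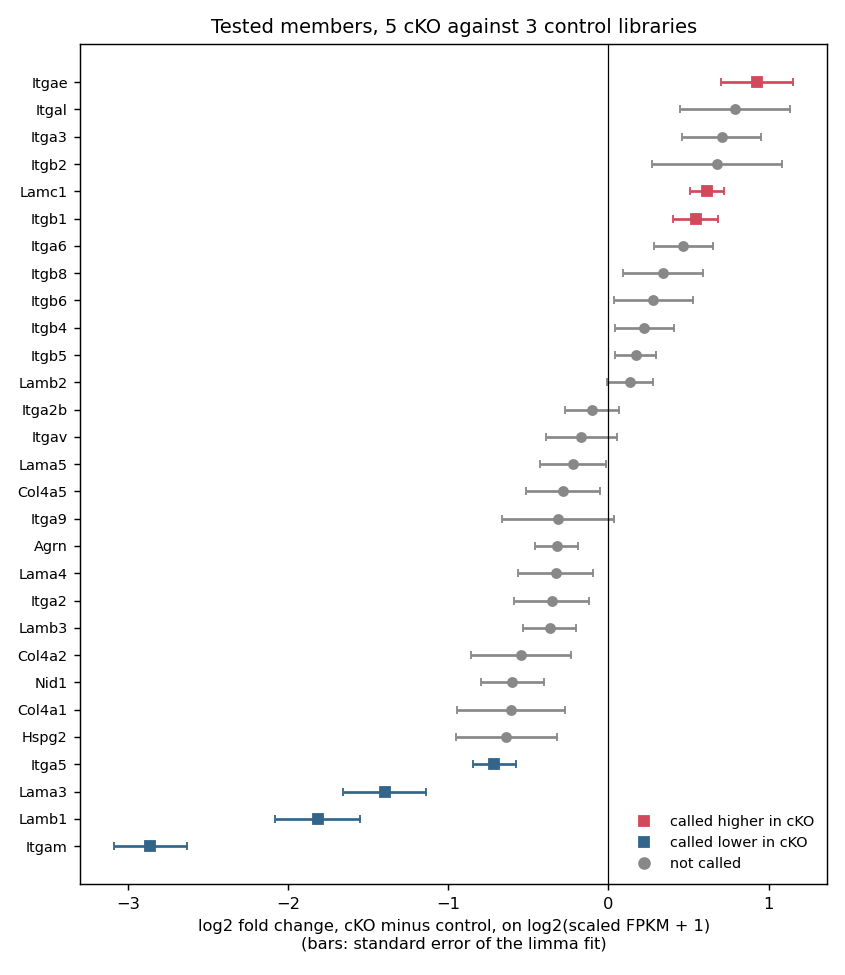
Log2 fold change, cKO minus control, of the 29 tested members on log2(scaled FPKM + 1), with bars for the standard error of the limma fit (3 control and 5 cKO libraries). Itgam lies farthest from 0 at -2.86, followed by Lamb1 at -1.82 and Lama3 at -1.40, and the 3 members called higher lie between 0.54 and 0.93.

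The levels covered a wide range, and 25 members were at 1 scaled FPKM or more in every library. The 12 most abundant, by the mean over all libraries, were Itgb1, Itga6, Lamb3, Lama5, Agrn, Itga3, Lamc1, Itgav, Itga2, Itgb5, Lama3 and Lamb2, and 3 of these were called. Of the 17 untested members, 14 were below 1 in every library: the collagen-binding chains Itga1, Itga10 and Itga11, Itga4, Itga8, the leukocyte chains Itgad and Itgb7, Itgb3, the laminin chains Lama1, Lama2 and Lamc3, and the collagen IV chains Col4a3, Col4a4 and Col4a6. The other 3 were Itga7, Itgax and Nid2, and the highest value among all 17 was 1.74 for Nid2 in cKO 3. Nid2, which encodes nidogen-2, was at 0.932, 1.08 and 0.675 in the 3 controls, at 0.625 and 1.74 in cKO 2 and cKO 3, and was listed at 0 in cKO 1, 4 and 5. Its span overlaps the gene 2700060E02Rik, which was at 10.7 to 14.9 scaled FPKM across all libraries. Whether the zeros come from how fragments were assigned was not tested. The laminin alpha1, alpha2 and gamma3 chains were thus at or near 0 in both groups.

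**Figure D2:**
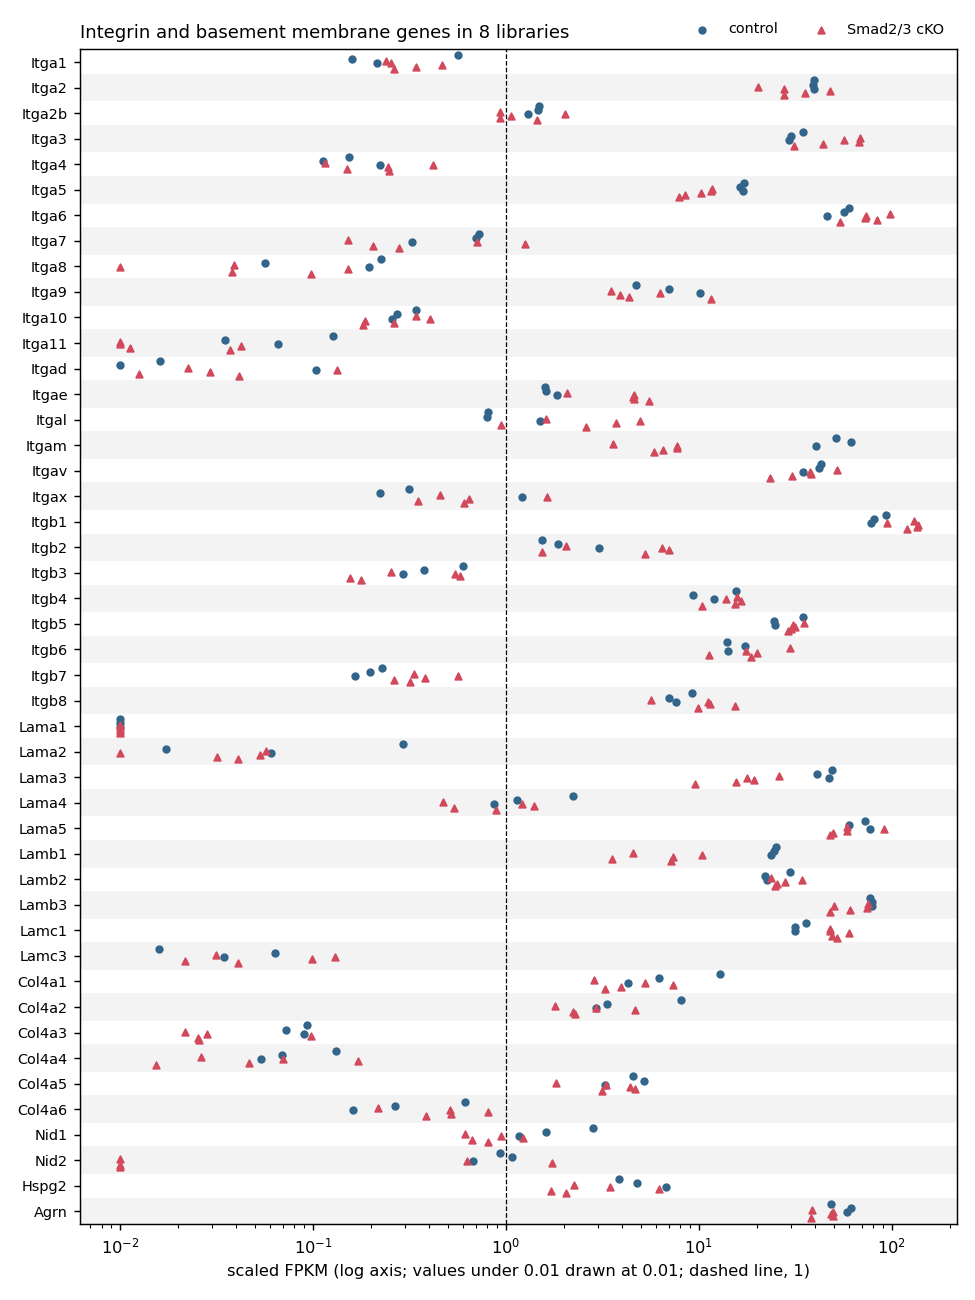
Scaled FPKM of all 46 members on a log axis, 1 point per library (circles, 3 control; triangles, 5 cKO), with values under 0.01 drawn at 0.01 and a dashed line at 1. The 14 genes with every point left of the line were below 1 in all 8 libraries, and Itgam, Lamb1 and Lama3 show the widest gaps between the groups.

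Itgam (chromosome 7, 128062640 to 128118491 on mm10) encodes integrin alphaM, or CD11b, which pairs with beta2 to form complement receptor 3. Its level was 51.6, 61.4 and 40.5 scaled FPKM in the 3 controls, and 3.57, 7.70, 7.75, 6.49 and 5.89 in cKO 1 to 5. The groups lay far apart, with 7.75 as the highest cKO and 40.5 as the lowest control value. The means were 51.2 ± 10.5 (SD, n = 3) and 6.28 ± 1.71 (SD, n = 5), 8.15-fold lower in cKO. The log2 fold change was -2.86 ± 0.23 (limma adjusted p = 0.00024, and p = 0.0179 by exact permutation, which with 3 and 5 libraries can give no smaller p). The deposited tables hold 2 Itgam transcripts of nearly equal length, and both were lower in cKO.

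Itgb2, the only beta chain known to pair with alphaM, was not called. It was at 1.53, 1.86 and 3.02 in controls 1 to 3 and at 2.06, 6.41, 7.02, 1.54 and 5.23 scaled FPKM in cKO 1 to 5, with overlapping groups (log2 fold change 0.68 ± 0.40, limma adjusted p = 0.280). Per length, Itgam exceeded Itgb2 by 13.4 to 33.7 times in control and by 1.10 to 4.21 times in cKO. In control, the alpha chain was therefore in large excess over its partner at the RNA level, and in 4 of the 5 cKO libraries the ratio was at most 1.73. The other alpha chains of beta2, Itgal, Itgax and Itgad, summed to 1.02 to 2.80 in control and 1.30 to 6.70 in cKO. Itgal, the alpha chain of LFA-1, was at 0.809, 0.795 and 1.50 in control and 1.61, 4.95, 3.71, 0.937 and 2.59 in cKO, and did not pass (0.79 ± 0.34, limma adjusted p = 0.155). Itgam made up 93.5% to 98.4% of the alpha chains that pair with beta2 in control and 53.4% to 83.3% in cKO.

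Markers of neutrophils, macrophages and lymphocytes were not called lower in cKO. Of 9 measured neutrophil markers 8 were tested and 2 rose, Retnlg and Il1r2, calls that ended under 10 and 14 of 24 alternatives. All 8 tested had a positive log2 fold change, with a median of 1.27. The sum of the neutrophil markers was 214 to 416 in control and 310 to 2000 in cKO. Most of this sum was S100a8 and S100a9, neither of them called (limma adjusted p = 0.054 for each). No macrophage marker was called among 7 tested of 12, with a median log2 fold change of -0.27 and 3 of the 7 positive. The sum of all 12 was 354 to 574 in control and 463 to 730 in cKO, most of it Cd14 and Cd68. These went opposite ways, with means of 335 in control and 465 in cKO for Cd14, and 101 and 68.5 for Cd68. The defining macrophage gene Adgre1 stayed below 1 in every library, at 0.203 to 0.888, and Cd163 at or near 0. Lymphocyte markers were tested for 2 of 14 genes, with none called, and Cd3e reached at most 0.280. Of 10 dendritic cell markers 3 were tested and 1, Cd74, fell. With the leukocyte marker level as a term in the fit, the Itgam log2 fold change was -2.92 (limma adjusted p = 0.0028). This term averaged the tested macrophage, neutrophil, dendritic and lymphocyte markers, among them the 8 neutrophil markers with positive changes. Because it pools markers that rose and markers that fell, it cannot show how Itgam follows any 1 cell type, which was not tested. None of the 24 alternative settings ended the Itgam call.

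**Figure D3:**
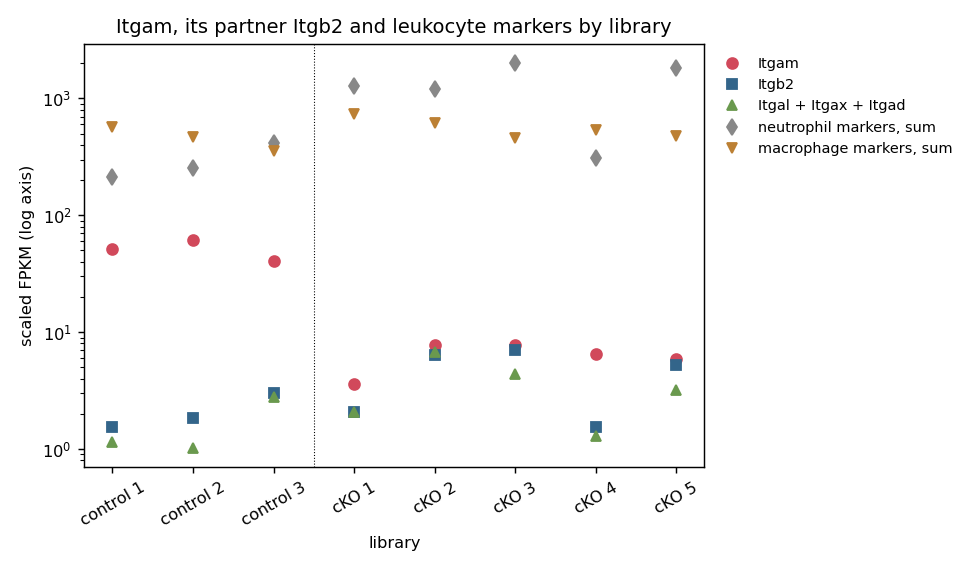
Scaled FPKM on a log axis of Itgam, its partner Itgb2, the other alpha chains of beta2 together (Itgal, Itgax and Itgad), and the summed neutrophil and macrophage markers in each library, 3 control and 5 cKO. Itgam was 40.5 to 61.4 in control and 3.57 to 7.75 in cKO, while Itgb2 and the neutrophil marker sum were highest in cKO 3. The neutrophil sum was mostly S100a8 and S100a9, and the macrophage sum mostly Cd14 and Cd68.

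The promoter of Itgam is shown because this gene had the largest difference among the members. RefSeq promoter windows on GRCm38.p6, from 250 bases before to 50 bases after a gene's start, were found for 31 of the 46 members. The window of Itgam is chr7:128062390-128062689, plus strand, and the capitals mark CAGAC on either strand (CAGAC or GTCTG), the short element that SMAD3 and SMAD4 can bind.
Itgam: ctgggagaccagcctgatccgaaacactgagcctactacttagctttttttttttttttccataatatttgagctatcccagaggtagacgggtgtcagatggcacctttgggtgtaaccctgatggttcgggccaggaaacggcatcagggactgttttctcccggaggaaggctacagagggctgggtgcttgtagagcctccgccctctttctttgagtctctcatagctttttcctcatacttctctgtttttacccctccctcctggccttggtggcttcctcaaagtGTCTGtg
It holds 1 such element, as GTCTG, 43 bases after the start. CAGAC on either strand occurs in 49.6% of all 32817 windows and in 20 of the 35 windows of members, 57.1%, so a match is common and is only a description. The palindrome GTCTAGAC occurs in 0.213% of all windows and in none of the 35, and the AP-1 motif TGANTCA in 7.81% of all and in 3 of the 35.

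Laminins are trimers of 1 alpha, 1 beta and 1 gamma chain, and 3 of the 7 tested chains were called, where the background was 14.3% of all tested genes. Lamb1 and Lama3 were lower and Lamc1 higher. Lamb1 (chromosome 12, 31265294 to 31329639), the beta1 chain, was at 25.0, 24.6 and 23.6 scaled FPKM in controls 1 to 3. In cKO 1 to 5 it was at 4.56, 10.3, 7.38, 3.53 and 7.18. The controls lay within a narrow band, and every cKO library lay far under the lowest of them. The mean was 3.70-fold lower in cKO, at 6.59 ± 2.66 (SD, n = 5) against 24.4 ± 0.731 (SD, n = 3), and the log2 fold change was -1.82 ± 0.27 (limma adjusted p = 0.0042, and p = 0.0179 by exact permutation). No alternative setting of 24 ended this call.

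Lamb2, the beta2 chain that can take the place of beta1 in a trimer, was not called. It was at 29.5, 22.0 and 22.7 in control and 23.7, 34.1, 28.0, 25.6 and 24.8 in cKO, with overlapping groups (0.14 ± 0.14, limma adjusted p = 0.545). Lamb1 was 45.8% to 52.9% of the sum of both chains in control and 12.1% to 23.2% in cKO. Between Lamb1 and Lamb2, the control libraries thus held similar levels per length, and the cKO libraries held mostly Lamb2. Lamb3, a beta chain typical of epithelia, was at 77.1, 79.2 and 79.1 in control and 75.4, 50.1, 74.7, 60.5 and 47.7 in cKO. Its groups did not overlap, but the nearest libraries were 77.1 and 75.4, and it was not called (-0.37 ± 0.17, limma adjusted p = 0.170).

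The Lamb1 promoter window is shown beside that of Itgam because Lamb1 was the basement membrane gene with the largest fall. It is chr12:31265043-31265342, plus strand on GRCm38.p6 from RefSeq, with CAGAC on either strand in capitals.
Lamb1: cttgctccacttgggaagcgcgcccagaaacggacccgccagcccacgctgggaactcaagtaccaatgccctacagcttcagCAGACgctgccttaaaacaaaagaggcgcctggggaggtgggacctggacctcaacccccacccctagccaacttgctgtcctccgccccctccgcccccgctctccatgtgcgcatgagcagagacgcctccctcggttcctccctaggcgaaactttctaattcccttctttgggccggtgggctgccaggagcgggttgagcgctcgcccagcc
It holds 1 CAGAC, 167 bases before the start. Its GC content is 63.7%, and that of the Itgam window is 50.3%, where the median of all windows is 52.7%.

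Lama3 (chromosome 18, 12334024 to 12583012) encodes laminin alpha3, an alpha chain of epithelial basement membranes. It was at 49.3, 41.0 and 47.4 scaled FPKM in the 3 controls, and 26.0, 17.7, 19.2, 15.5 and 9.50 in cKO 1 to 5. All cKO libraries were below all controls, and cKO 5 was the lowest. The mean fell from 45.9 ± 4.35 to 17.6 ± 5.97, 2.61-fold, and the log2 fold change was -1.40 ± 0.26 (limma adjusted p = 0.0108, and p = 0.0179 by exact permutation). The call ended without control 3 (limma adjusted p = 0.057) and with stromal and muscle markers as a term (limma adjusted p = 0.068, log2 fold change -1.25).

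Lama5, the alpha chain of laminins 511 and 521 and the most abundant alpha chain here, was at 72.5, 60.4 and 77.0 in control and 58.7, 91.3, 58.7, 49.5 and 48.2 in cKO. The groups overlapped and it was not called (-0.22 ± 0.20, limma adjusted p = 0.480). The ratio of Lama5 to Lama3 was 1.47 to 1.63 in control and 2.26 to 5.16 in cKO, and did not overlap. Lama4, an alpha chain typical of vessels, was low in both groups, at 0.870 to 2.22 in control and 0.472 to 1.39 in cKO.

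Lamc1 (chromosome 1, 153218922 to 153332786), the gamma1 chain found in most laminins, was at 35.9, 31.7 and 31.6 in the 3 controls, and 47.7, 47.7, 60.0, 48.9 and 52.3 in cKO 1 to 5. Every cKO library was above every control. The mean rose from 33.1 ± 2.49 to 51.3 ± 5.21, 1.55-fold, and the log2 fold change was 0.62 ± 0.10 (limma adjusted p = 0.0074, and p = 0.0179 by exact permutation). The call ended without control 2 or control 3 and with TPM, at limma adjusted p of 0.053, 0.052 and 0.053. Lamc1 therefore moved opposite to Lamb1, its partner in laminin-511, and the ratio of Lamc1 to Lamb1 was 1.29 to 1.44 in control and 4.62 to 13.8 in cKO.

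The lowest chain of a trimer sets a ceiling on how many trimers its RNA could supply, if all chains were translated alike. For laminin-511 (Lama5, Lamb1 and Lamc1) the lowest chain was Lamb1, so the ceiling was 24.4 ± 0.731 scaled FPKM in control and 6.59 ± 2.66 in cKO. For laminin-521 it was Lamb2 in every library, at 24.7 ± 4.19 and 27.2 ± 4.15. Thus the ceiling of laminin-511 did not overlap between groups, and that of laminin-521 did. These ceilings carry no test of their own, and they repeat the values of Lamb1 and Lamb2. They take no account of chains made by the stroma under the epithelium.

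**Figure D4:**
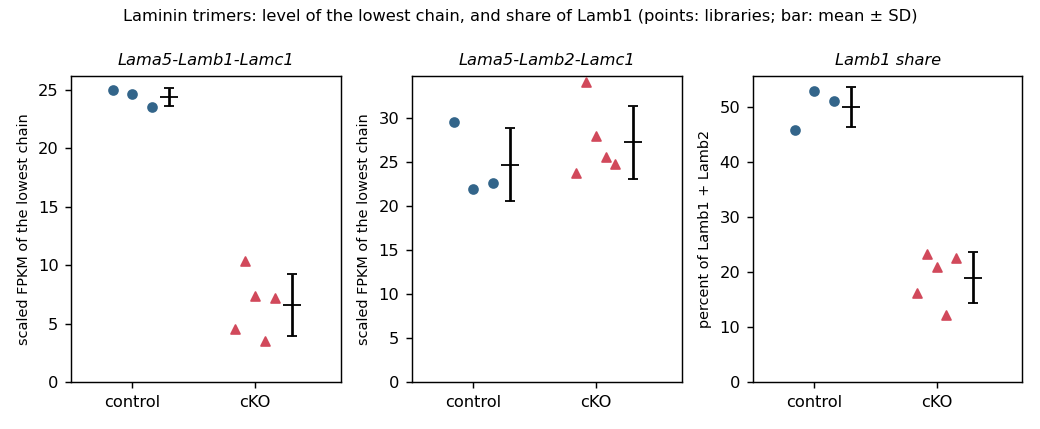
Scaled FPKM of the lowest chain of 2 laminin trimers in each library, and Lamb1 as a percent of Lamb1 plus Lamb2 (points, 3 control and 5 cKO libraries; bars, mean ± SD). The lowest chain of Lama5-Lamb1-Lamc1 falls from 24.4 to 6.59, while Lama5-Lamb2-Lamc1 overlaps between groups.

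Itgb1 (chromosome 8, 128685654 to 128733579) was the most abundant member, and its product pairs with 11 of the measured alpha chains besides alphaV. It was at 93.0, 80.6 and 78.0 scaled FPKM in the 3 controls, and 131, 94.6, 136, 135 and 120.4 in cKO 1 to 5. The groups did not overlap, although cKO 2 at 94.6 was close to control 1 at 93.0. The mean rose from 83.9 ± 7.99 to 123 ± 17.3, 1.47-fold, and the log2 fold change was 0.54 ± 0.14 (limma adjusted p = 0.035, and p = 0.0179 by exact permutation). The call ended under 12 of 24 alternatives, among them unscaled FPKM, quantile normalization, TPM, the leukocyte and the endothelial level as a term, and leaving out any 1 library except cKO 2, with adjusted p up to 0.169.

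The window of Itgb1 is printed as that of the most abundant member, at chr8:128685404-128685703, plus strand on GRCm38.p6 from RefSeq, with CAGAC on either strand in capitals.
Itgb1: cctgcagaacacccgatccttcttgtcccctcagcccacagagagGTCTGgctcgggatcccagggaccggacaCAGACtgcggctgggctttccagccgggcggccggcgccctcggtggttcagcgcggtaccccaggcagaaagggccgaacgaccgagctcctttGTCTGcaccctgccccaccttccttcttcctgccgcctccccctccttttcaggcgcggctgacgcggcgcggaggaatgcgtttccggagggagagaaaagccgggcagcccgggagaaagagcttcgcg
It holds 3 such elements, 205, 176 and 81 bases before the start, and its GC content is 67.3%.

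The laminin receptors of epithelia are alpha3beta1, alpha6beta1 and alpha6beta4. Itga3 was at 34.6, 29.9 and 29.3 in control and 68.4, 56.8, 68.0, 43.9 and 31.1 in cKO, where cKO 5 lay among the controls. It was not called (0.71 ± 0.25, limma adjusted p = 0.092), and was called without cKO 5 (0.89, limma adjusted p = 0.018) and with array weights (limma adjusted p = 0.027). A 4635-base Itga3 transcript that starts within the gene took 0% to 11.0% of the gene's FPKM in control, 61.5% and 38.1% in cKO 1 and cKO 2, and 0% to 15.5% in cKO 3 to 5. Such shares are estimates over overlapping transcripts. Itga6 was at 60.1, 56.9 and 46.1 in control and 97.9, 73.2, 72.6, 84.3 and 54.1 in cKO, and was not called (0.47 ± 0.18, limma adjusted p = 0.123) unless cKO 5 was left out (limma adjusted p = 0.044). Itgb4, the hemidesmosome chain that pairs with alpha6 alone, was at 9.31 to 15.5 in control and 10.4 to 16.5 in cKO. Itga6 exceeded it 3.86 to 6.11 times in control and 4.41 to 6.23 times in cKO, so Itgb4 was the lower chain of alpha6beta4 in every library.

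Itga5 (chromosome 15, 103344286 to 103366748), whose product with beta1 is the main fibronectin receptor, was the other integrin chain that fell. It was at 17.2, 16.3 and 16.9 in the 3 controls, and 11.7, 11.5, 10.2, 8.50 and 7.88 in cKO 1 to 5. All cKO libraries lay below the controls. The mean fell 1.68-fold, from 16.8 ± 0.457 to 9.96 ± 1.73, and the log2 fold change was -0.71 ± 0.13 (limma adjusted p = 0.0114, and p = 0.0179 by exact permutation). The call ended without control 2 (limma adjusted p = 0.055), without control 3 (limma adjusted p = 0.058) and with stromal and muscle markers as a term (limma adjusted p = 0.067). Stromal markers had a median log2 fold change of -0.70 over the 11 tested of 13, with 1 called (Nr2f2, lower), and their sum was 275, 191 and 121 in control and 68.2, 132, 263, 61.2 and 76.7 in cKO.

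The Itga5 window is shown as the third of the called integrin chains with a window, at chr15:103366742-103367041, minus strand on GRCm38.p6 from RefSeq, printed in the direction of the gene with CAGAC on either strand in capitals.
Itga5: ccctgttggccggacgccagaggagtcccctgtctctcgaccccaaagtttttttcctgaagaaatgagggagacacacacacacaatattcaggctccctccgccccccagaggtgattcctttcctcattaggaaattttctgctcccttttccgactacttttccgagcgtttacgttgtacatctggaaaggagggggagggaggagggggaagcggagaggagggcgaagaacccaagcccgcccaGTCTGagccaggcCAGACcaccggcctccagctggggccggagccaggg
It holds GTCTG 1 base and CAGAC 14 bases after the RefSeq start, and its GC content is 58.7%. The Itga5 span of the deposited values starts further into the window, at 103366748, so both elements lie before that start. The 4 called members with a window, Itgam, Lamb1, Itga5 and Itgb1, each had at least 1 such element, both those that fell and the one that rose. The other 3 called members, Lama3, Lamc1 and Itgae, had no window in the table.

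The remaining beta1 partners did not pass. Itga2, the collagen receptor chain of epithelia, was at 39.7, 39.0 and 39.4 in control and 20.2, 27.7, 48.0, 35.6 and 27.7 in cKO (-0.35 ± 0.23, limma adjusted p = 0.324). Its control values were nearly equal, and the cKO values spread on both sides of them. Itga9, which binds tenascin and other ligands, was at 4.72 to 10.2 in control and 3.52 to 11.6 in cKO. In every beta1 pairing the alpha chain was the lower one, and Itgb1 was 0.536 to 0.587 times the sum of its 11 partner chains other than Itgav in control and 0.534 to 0.902 times in cKO.

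The alphaV integrins, receptors for RGD sequences such as the one in latent TGF-beta, showed no called member. Itgav was at 42.8, 41.8 and 34.8 in control and 51.9, 37.8, 38.0, 30.4 and 23.5 in cKO (-0.17 ± 0.22, limma adjusted p = 0.628). Itgb5 was at 34.7, 24.7 and 24.8 in control and 35.2, 30.8, 31.5, 30.1 and 29.1 in cKO (0.17 ± 0.13, limma adjusted p = 0.384), with a sign that turned under TPM. Itgb6 and Itgb8, the beta chains of the integrins that release latent TGF-beta, were the lower chains of their pairs with alphaV. Itgb6 was at 14.0 to 17.4 in control and 11.2 to 29.5 in cKO, and Itgb8 at 7.01 to 9.26 and 5.68 to 15.4. The groups overlapped for each of these beta chains. Summed over all 8 integrin beta genes, the level was 140.0 to 169 in control and 176 to 224 in cKO, most of it Itgb1, while the summed alpha genes overlapped at 224 to 258 and 173 to 263.

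Itgae (chromosome 11, 73090595 to 73147449) encodes integrin alphaE, or CD103, which with beta7 binds E-cadherin and is known from lymphocytes and dendritic cells within epithelia. It was at 1.60, 1.61 and 1.84 scaled FPKM in the 3 controls, and 2.06, 4.61, 4.58, 4.61 and 5.49 in cKO 1 to 5. The groups did not overlap, and cKO 1 lay close to the controls. The mean was 2.54-fold higher in cKO, at 4.27 ± 1.29 against 1.68 ± 0.135, and the log2 fold change was 0.93 ± 0.22 (limma adjusted p = 0.028, and p = 0.0179 by exact permutation). Its partner Itgb7 was at 0.165 to 0.227 in control and 0.263 to 0.567 in cKO, below the level that was tested. Lymphocyte markers summed to 6.61 to 7.37 in control and 7.27 to 17.0 in cKO, and dendritic markers to 36.7 to 57.0 and 18.6 to 33.9. With the same pooled leukocyte marker level as a term, the log2 fold change of Itgae was 0.81 and no longer passed (limma adjusted p = 0.116).

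The kinase gene Gsg2 (chromosome 11, 73135484 to 73138294) lies inside the span of the longer Itgae transcript, and no strand use is stated, so reads within the overlap cannot be assigned by strand. Gsg2 was at 1.36, 1.38 and 1.46 in control and 1.39, 2.93, 5.22, 4.06 and 3.66 in cKO (0.82 ± 0.27, limma adjusted p = 0.077). The shorter Itgae transcript, of 3813 bases, ends before Gsg2 starts, and was at 0.616, 0.487 and 0.749 in control, listed at 0 in cKO 1, and at 1.17, 1.26, 1.38 and 1.05 in cKO 2 to 5. The Itgae call ended under 10 of 23 alternatives, among them TPM, no filter, each marker level as a term, and leaving out any control, cKO 2 or cKO 5, with adjusted p up to 0.116. Itga2b, the platelet chain, was called under none of its alternatives and had a mean of 1.41 ± 0.102 in control and 1.28 ± 0.471 in cKO.

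**Figure D5:**
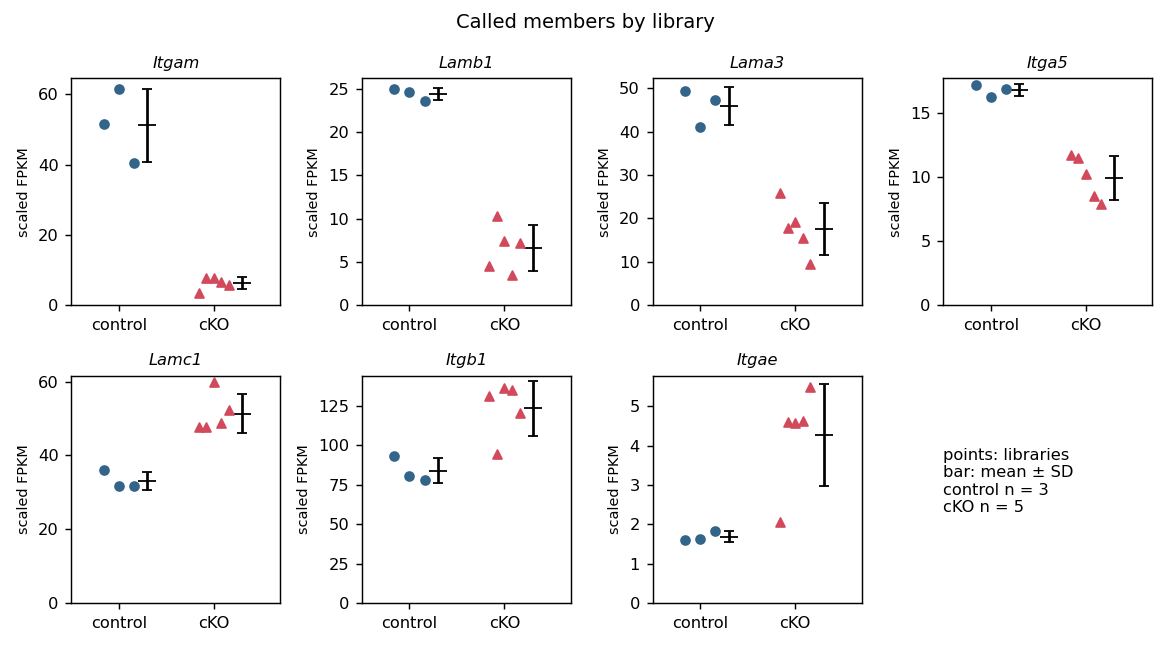
Scaled FPKM of the 7 called members in each library, with mean ± SD of 3 control and 5 cKO libraries. Itgam, Lamb1, Lama3 and Itga5 lie lower in every cKO library than in any control, and Lamc1, Itgb1 and Itgae higher, with the smallest gaps for Itgb1 and Itgae.

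The collagen IV network, the nidogens and the proteoglycans held no called member, with 6 genes tested. All 6 log2 fold changes were negative, from -0.28 for Col4a5 to -0.64 for Hspg2. Col4a1 and Col4a2, which form the common collagen IV trimer, were at 4.32 to 12.9 and 2.92 to 8.05 in control and at 2.86 to 7.31 and 1.79 to 4.68 in cKO. Control 1 was the highest library for both, and the groups overlapped (limma adjusted p = 0.250 and 0.259). Smooth muscle and pericyte markers, none called among 6 tested of 11, had a median log2 fold change of -1.05, and they summed to 331, 56.9 and 94.7 in controls 1 to 3 and 15.3 to 106 in cKO. Neither Col4a1 nor Col4a2 was called in any alternative fit, among them the fit that accounted for stromal and muscle markers together. Over all alternative fits, the log2 fold change ran from -0.91 to -0.076 for Col4a1 and from -0.81 to -0.0084 for Col4a2. The part of the muscle and pericyte markers alone was not tested. The ratio of Col4a1 to Col4a2 stayed between 1.44 and 1.86 in all 8 libraries. Nid1, nidogen-1, was at 2.81, 1.61 and 1.17 in control and 0.615, 0.939, 1.23, 0.665 and 0.804 in cKO (-0.60 ± 0.20, limma adjusted p = 0.077). Nid1 passed under 1 of 23 alternatives, TPM (limma adjusted p = 0.036). Perlecan (Hspg2) was at 3.87, 4.77 and 6.75 in controls 1 to 3 and 1.71 to 6.21 in cKO (-0.64 ± 0.31, limma adjusted p = 0.199). Among the cKO libraries it was highest in cKO 3, as the stromal marker sum was. Among the controls they ran in opposite order, with the stromal marker sum at 275, 191 and 121 in controls 1 to 3. Hspg2 passed under 3 of 23 alternatives, among them the fit without cKO 3 (limma adjusted p = 0.032). Agrin, the other proteoglycan and the more abundant by far, was at 48.5, 61.7 and 58.9 in control and 38.8, 49.7, 48.6, 49.5 and 38.1 in cKO (-0.32 ± 0.13, limma adjusted p = 0.140). Agrn passed under 1 of 24 alternatives (limma adjusted p = 0.024).

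Col4a1 and Col4a2 lie head to head on chromosome 8, with 2 bases between their starts, and their promoter windows share 78 bases. The Col4a2 window is shown because both genes kept 1 ratio across libraries. It is chr8:11312555-11312854, plus strand on GRCm38.p6 from RefSeq, with CAGAC on either strand in capitals.
Col4a2: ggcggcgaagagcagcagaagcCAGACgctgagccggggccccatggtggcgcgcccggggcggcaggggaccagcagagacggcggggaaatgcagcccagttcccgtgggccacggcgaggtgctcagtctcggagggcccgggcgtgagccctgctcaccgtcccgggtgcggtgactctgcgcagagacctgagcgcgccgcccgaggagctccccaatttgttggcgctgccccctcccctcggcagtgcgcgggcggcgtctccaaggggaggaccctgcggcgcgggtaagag
It holds 1 CAGAC, 228 bases before the start of Col4a2, and its GC content is 73.7%.

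Other genes of cell adhesion and the basement membrane were followed in 6 lists of 115 genes, 86 of them tested. Of these 12 rose and 8 fell, 23.3% of those tested, where 14.3% of all tested genes were called, 7.27% higher and 6.98% lower. The median log2 fold change was -0.02, and -0.0050 over all tested genes. These are the background for the counts of each list that follow, and the lists are small. Among 12 receptors for the basement membrane that are not integrins, 11 were tested, 4 rose and 3 fell. Syndecan-1 (Sdc1) rose from 61.5 ± 2.96 to 159.9 ± 37.5 scaled FPKM (1.33 ± 0.18, limma adjusted p = 0.0029). The laminin alpha5 receptor Bcam rose from 64.2 ± 4.29 to 209 ± 62.6 (1.63 ± 0.23, limma adjusted p = 0.0037). Syndecan-4 (Sdc4) rose from 49.2 to 103, and dystrophin (Dmd) fell from 1.31 to 0.365. The other called genes of this list were Ddr1, higher, and Ddr2 and Sgce, lower. 

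Of 28 focal adhesion genes, 24 were tested, 1 rose and 3 fell. Fermt2, which encodes the integrin activator kindlin-2, rose from 2.65 ± 1.59 to 13.9 ± 1.11 scaled FPKM (2.11 ± 0.22, limma adjusted p = 0.0011), with 12.4 as the lowest cKO and 4.47 as the highest control value. Its epithelial relative Fermt1 was at 45.9 to 50.8 in control and 38.7 to 49.3 in cKO, and was not called. The genes that fell were vinculin (Vcl, -0.40 ± 0.09), Lims1 (-0.67 ± 0.17) and Tes (-0.62 ± 0.13). Of 9 genes of hemidesmosomes and their tetraspanin partners, all tested, Dst (0.74 ± 0.15) and Cd63 (0.97 ± 0.26) rose.

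Of 27 integrin ligands outside the basement membrane, 15 were tested, 3 rose and none fell, with a median log2 fold change of 0.50. Osteopontin (Spp1), a ligand of alphaV integrins, rose from 538 ± 288 to 2325 ± 313 scaled FPKM (2.24 ± 0.32, limma adjusted p = 0.0039). Ctgf (1.29 ± 0.30) and Mfge8 (1.15 ± 0.28) also rose. Among 23 other matrix proteins of the basement membrane, netrin-1 (Ntn1) rose from 2.84 to 11.9 (1.74 ± 0.20) and nephronectin (Npnt) fell from 2.51 to 1.01 (-0.83 ± 0.22), of 14 tested. Among 16 enzymes and factors that mature collagen IV and laminin, 13 were tested. Colgalt1, a collagen galactosyltransferase, fell from 45.8 to 26.3 (-0.76 ± 0.14), and the lysyl hydroxylase Plod3 rose (0.55 ± 0.15). Several of these calls ended under many alternatives: Plod3 under 15 of 24, Npnt under 14 of 23, and Lims1, Cd63 and Ddr2 under 12 of 24 each. Mfge8 and Sgce lost theirs under 9 of 24 and Ddr1 under 7. Those of Fermt2, Bcam, Sdc1, Sdc4, Ntn1, Colgalt1 and Spp1 held under all 24.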

How the data were processed

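The authors deposited 1 table per library with transcript FPKM and fragment coverage, made on mm10 with bcl2fastq 1.8.3, TopHat and Cufflinks per the submitters' processing notes. Versions of the last 2, the annotation release and strand use are not stated in the sources used here. The deposited coverage signal was not analysed further. FPKM was summed per gene symbol, after 15 genes with a Cufflinks status other than OK were left out (no member), and scaled by median ratios over 9939 genes (factors 0.924 to 1.06). Genes at 1 scaled FPKM or more in at least 3 libraries went into limma 3.58.1 (R 4.3.3), on log2(scaled FPKM + 1), two-sided, with a variance trend and Benjamini-Hochberg adjustment. The fit was tested on simulated data. FPKM is not a count, so no count test was run, and depth was estimated from the deposited interval widths. Exact permutation tests were two-sided over all 56 assignments of 3 and 5 libraries. No pair of libraries held identical values. The members and lists were chosen with earlier results of these data known. Values in every library are given for the called members and the 12 most abundant; other genes are up to 4 called genes per list by adjusted p; genes named beyond this were chosen after their values were seen. The 24 alternatives comprised other scalings, pseudocount, filters and variance models, leaving out libraries, and the title series or a marker level as a term. In their titles, cKO 1 and cKO 2 carry numbers of a separate series, whose meaning the labels do not give. Coordinates are 1-based.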

Additional observations from a re-analysis of the deposited data

Results flagged for a closer look

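In the 5 cKO libraries, 2 of the 29 tested members had 1 library far from the other 4. For Itgae it was the lowest, cKO 1 at 2.06 scaled FPKM, near the control range of 1.60 to 1.84. For Lama5 it was the highest, cKO 2 at 91.3, above every control. Chance sets about 1 in 20 such groups apart, and 29 were looked at. For Itgae, the fit without cKO 1 and cKO 2 gave 1.13 on the log2 scale (limma adjusted p = 0.0047). As cKO 1 was the cKO library nearest the controls, leaving it out raises the difference, so this fit cannot show what the call rests on. The call ended when any 1 control, cKO 2 or cKO 5 was left out.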

How the results depend on the processing

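Of the 7 calls, those of Itgam and Lamb1 held under all 24 alternatives, and all 7 held without cKO 1 and cKO 2. Members called higher, 3 as reported, numbered 0 with TPM, 1 with the leukocyte or the endothelial level as a term, and 0 to 3 when 1 library was left out (0 without control 2 or control 3, 1 without control 1). Members called lower, 4 as reported, numbered 7 with array weights, 2 with the stromal and muscle marker level in the fit, and 2 to 5 when 1 library was left out (2 without control 3). Over all genes, 823 higher and 790 lower became 512 and 1616 with TPM, 1793 and 1733 with array weights, 337 and 288 with the stromal and muscle level, 515 and 480 with the leukocyte level, and 474 lower with the endothelial level; leaving out 1 library gave 238 to 935 higher and 176 to 892 lower. Listed adhesion genes, 12 higher and 8 lower, became 20 and 13 with array weights, 7 and 5 with the leukocyte level, and 6 to 13 and 1 to 14 when 1 library was left out. Lower listed genes were 13 with TPM, 5 with no filter, 5 without cKO 1 and cKO 2, 1 with the stromal and muscle level and 3 with the endothelial level. The sign turned for Itgb2 with the leukocyte level (-0.10), and for Itgb5 (-0.030) and Lamb2 (-0.064) with TPM, none of them called. TPM moved the median log2 fold change of all tested genes to -0.20, and 24.1% of its calls were higher in place of 51.0%; relative to that median Itgb5 was at 0.17 and Lamb2 at 0.14. The cause of these changes was not tested. No paired analysis was possible because the labels give no replicate numbers that pair libraries. The number of libraries, 3 controls and 5 cKO, limits the precision of every value.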
